A study of Mus musculus with 2 samples.

Results

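Cells of the villus, the finger of intestinal mucosa that absorbs food, are exposed to oxidants from their own mitochondria, from diet and from microbes. The 10 antioxidant enzyme genes Nqo1, Gclc, Gclm, Txnrd1, Srxn1, Gpx1, Gpx2, Sod1, Cat and Prdx1 were taken by symbol from a table of 20720 mouse gene symbols, with 1 row per symbol, the one with the highest mean. All 10 were found, and 9 had a mean normalised read count of at least 20, the level required here to call a gene measured. The rule names genes only and uses no measured value.

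Superoxide dismutases turn superoxide into hydrogen peroxide. Catalase, glutathione peroxidases and peroxiredoxins then remove the peroxide. Glutathione and thioredoxin supply the electrons to the glutathione peroxidases and peroxiredoxins. Many genes of this system are induced by the transcription factor NRF2 (gene Nfe2l2), which the adaptor KEAP1 marks for degradation until oxidants or electrophiles modify KEAP1. NRF2 binds with small MAF proteins to the antioxidant response element. Nqo1, Gclc, Gclm, Txnrd1, Srxn1 and Prdx1 are textbook targets, and Gpx2, a glutathione peroxidase of the gut epithelium, is also one.

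The study sequenced messenger RNA of villi purified from the small intestine of C57BL/6 mice. The control library carried Rosa26-CreERT2, a tamoxifen-activated Cre recombinase expressed from a ubiquitous locus, and Cdkn2a-/-. The other library carried Rosa26-CreERT2, Cdkn2a-/-, Ring1a-/- and Ring1bf/f, and is called dKO (double knockout) here. Ring1a (Ring1) and Ring1b (Rnf2) are the ubiquitin ligases of Polycomb repressive complex 1. Loss of Cdkn2a and Cre activation are therefore shared, loss of Ring1a is constitutive, and loss of Ring1b depends on recombination in any Cre-expressing cell, epithelial or not. Each library was taken 6 days after 3 tamoxifen injections. There was 1 library per genotype, so every difference below is between 2 libraries, has no replicate check and carries no test. How many animals each library came from, and their age, is not stated by the labels.

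The libraries held 775827 recovered reads (control) and 1058196 (dKO), and intervals below are 95% exact counting intervals that cover counting error only. Ring1 had 10 reads in each library, and Rnf2 had 59 and 82, so neither count was lower beyond counting error and the labels stand unchecked: "dKO" below means the library labelled so. Xist had 80 and 1 reads and Ddx3y 0 and 131, so genotype and sex cannot be told apart. Reads of 11 absorptive enterocyte markers numbered 9398 and 12827, with 0 of 11 at 0 reads in either library. These markers did not move together. Normalised ratios of dKO over control ran from 0.906 for Apoa1 (0.844 to 0.973) to 8.70 for Sis (6.19 to 12.6). Apoa4 was at 0.933 (0.883 to 0.986) and Lct at 4.15 (3.53 to 4.89). Fibroblast and smooth muscle markers were higher in the dKO library. Reads numbered 42 and 222 over 6 fibroblast genes and 41 and 188 over 6 smooth muscle genes. Over 6 endothelial genes they numbered 53 and 49, and Tie1, the only measured one, had 48 and 5. Others of that list went the opposite way, with few reads: Lyve1 had 1 and 19, Vwf 0 and 10, Plvap 3 and 13 and Cdh5 0 and 1. Kdr had 1 in each library. Read totals of other epithelial lineages also differed. They were 1732 and 3212 over 7 Paneth cell markers and 5411 and 4450 over 7 goblet cell markers. Over 5 tuft cell markers they were 270 and 97, and over 8 enteroendocrine markers 1529 and 2431. In the goblet and enteroendocrine lists members also went both ways. Muc2 had 1155 and 671 reads and Agr2 137 and 241, and Chga had 395 and 920 and Gip 387 and 246. Trpm5 had 189 and 33 of the tuft reads. The nuclear RNAs Malat1 and Neat1 had 6968 and 1211 and 3629 and 1519 reads. In bulk tissue a change in the number of cells of a type and a change in RNA per cell cannot be told apart. The part of these markers and RNAs in the results below was not tested.

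Most of the measured antioxidant enzymes had more normalised reads in the dKO library. Of the 9, 4 were at least 2-fold higher (Cat, Nqo1, Gclm and Prdx1), 0 were at least 2-fold lower, and 5 lay within 2-fold. With TMM scaling, which assumes that most genes do not change, only Cat was at least 2-fold higher and Gpx2 was at least 2-fold lower. Among all 6000 measured genes, 26.2% passed the 2-fold limit upward and 4.18% downward. The median log2 ratio of dKO over control was 0.86 over the 9 enzymes and 0.51 over all measured genes, a difference of 0.35. Relative to that common median, Cat lay at least 2-fold above, Gpx2 lay at least 2-fold below, and the other 7 lay between. For comparison, 11.8% of all measured genes lay that far above the median and 10.4% that far below it. In the dKO library the 10 genes together took 0.377% of all reads (0.365% to 0.389%), against 0.350% (0.337% to 0.364%) in the control.

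**Figure D1:**
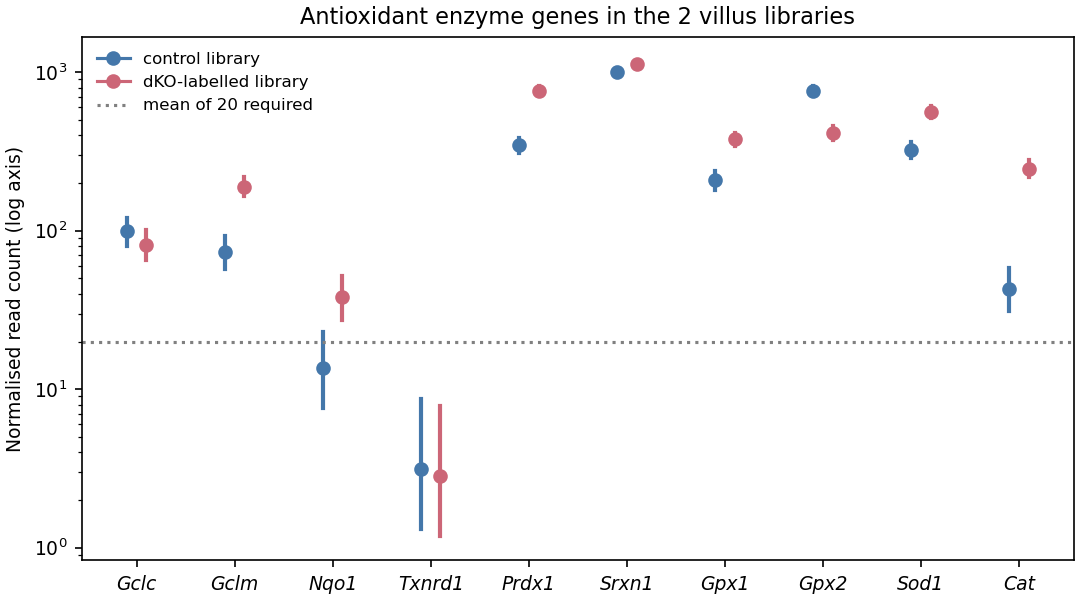
Normalised read count (log axis) of the 10 antioxidant enzyme genes in the control library (blue) and the dKO-labelled library (red), 1 library each, with vertical lines for the 95% counting interval. Cat, Nqo1, Gclm, Prdx1, Gpx1 and Sod1 sit higher in the dKO-labelled library with intervals that do not overlap. Gpx2 sits lower, and Txnrd1 lies under the dotted line at 20.

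The first step of glutathione synthesis is carried out by glutamate-cysteine ligase, made of the catalytic subunit Gclc and the modifier subunit Gclm. Gclm (NM_008129) had a normalised count of 73.7 in the control and 190 in the dKO library, from 69 and 199 reads. The dKO value was 2.60-fold that of the control, with an interval of 1.97 to 3.47. Gclc (NM_010295) had 99.0 and 81.6, from 93 and 85 reads, a ratio of 0.824 with an interval of 0.607 to 1.12 that includes 1. The subunits of this enzyme therefore did not move together. Gclm made up 42.6% of the reads of the pair in the control (34.9% to 50.6%) and 70.1% in the dKO library (64.4% to 75.3%). This share does not depend on how the libraries are scaled. In GENCODE M21 the exons of Gclm overlap an antisense transcript, Gm17494, and a processed pseudogene, Gm6061, so some of its reads cannot be assigned to it with certainty.

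Nqo1 encodes a quinone reductase that uses NADH or NADPH to reduce quinones without releasing radicals. Nqo1 (NM_008706) had the fewest reads of the 9, with 12 in the control and 39 in the dKO library, or 13.7 and 38.0 normalised. The ratio was 2.93, and the interval, 1.50 to 6.15, was the widest of the 9. Its position relative to the 2-fold line is therefore not settled at this depth. The intervals of Gclm and Prdx1 also include 2.

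Peroxiredoxin 1, encoded by Prdx1, reduces hydrogen peroxide with a cysteine that can be over-oxidised, and sulfiredoxin, encoded by Srxn1, repairs that cysteine. Prdx1 (NM_011034) had a normalised count of 347 in the control library and 765 in the dKO library, a ratio of 2.21 (1.94 to 2.52). Srxn1 (NM_029688) had 999 and 1119, a ratio of 1.12 (1.03 to 1.22). Srxn1 was above 1 only with the deposited size factors among the scalings tried: its log2 ratio of 0.16 became -0.13 with total reads and -0.36 with TMM scaling. Prdx1 made up 25.7% of the reads of this pair in the control (23.3% to 28.2%) and 40.6% in the dKO library (38.4% to 42.8%).

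Txnrd1 encodes the cytosolic thioredoxin reductase, a selenoprotein that recharges thioredoxin. Its highest row (NM_001042523) had 2 reads in each library, a ratio of 0.901 with an interval of 0.0653 to 12.4, so no difference was detectable at this depth. The other rows of the gene, NM_001042513 and NM_001042514, had 1 read each in the control and 0 in the dKO library. RefSeq lists 4 curated transcripts for the gene. Of the 1171 symbols with several rows, 14.5% were measured, against 29.8% of the 19549 symbols with 1 row. Grouped by curated RefSeq transcripts, 28.5% of symbols with several were measured, against 29.5% of those with 1. Whether reads shared by transcripts were dropped in counting was not tested, and the low value is not read here as low expression.

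Glutathione peroxidases reduce peroxides with glutathione. Gpx1 is expressed in nearly all cells, and Gpx2 mainly in the gastrointestinal epithelium, where it is known to be strongest toward the crypt. These 2 selenoproteins differed in opposite directions under every scaling tried. Gpx1 (NM_008160) had a normalised count of 207 in the control library and 377 in the dKO library, a ratio of 1.82 (1.53 to 2.17). Gpx2 (NM_030677) had 766 and 414 and was 1.85-fold lower in the dKO library (1.64 to 2.09), the lowest ratio of the 9 and 5.07% of all measured genes had a lower one. Gpx1 made up 21.3% of the reads of the pair in the control (18.7% to 24.0%) and 47.7% in the dKO library (44.2% to 51.1%), a shift of the pair that no choice of scaling alters. The 6 crypt stem and proliferation markers, of which 2 were measured, had 105 and 207 reads in all, and their part in the Gpx2 value was not tested. Gpx2 has an annotated processed pseudogene, Gpx2-ps1, so its reads could be split.

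**Figure D2:**
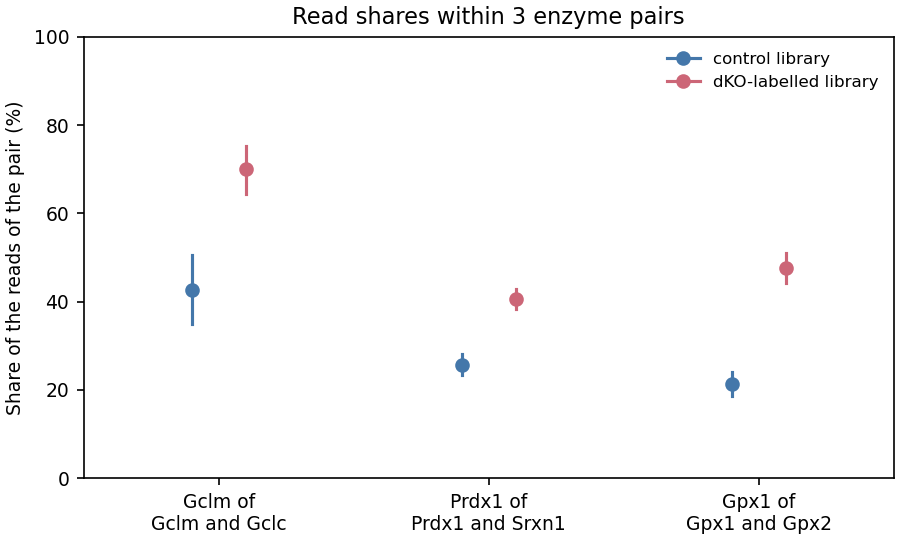
Share of the reads of an enzyme pair (percent, axis from 0 to 100) taken by Gclm, Prdx1 and Gpx1 in the control library (blue) and the dKO-labelled library (red), with 95% exact binomial intervals as vertical lines. The share is higher in the dKO-labelled library in all 3 pairs, from 21.3% to 47.7% for Gpx1 against Gpx2.

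Sod1 encodes the cytosolic copper-zinc superoxide dismutase, and Cat encodes catalase, a heme enzyme of peroxisomes that splits hydrogen peroxide without a reductant. Sod1 (NM_011434) had a normalised count of 322 in the control library and 562 in the dKO library, a ratio of 1.75 (1.52 to 2.01). Cat (NM_009804) had 43.2 and 246, from 40 and 258 reads. This was the largest ratio among the 9, 5.81 with an interval of 4.16 to 8.33. Cat was the only one whose whole interval lay above 2-fold, and its log2 ratio of 2.48 was higher than that of 97.4% of measured genes. Cat took 1.47% of the reads of the 10 genes in the control (1.05% to 2.00%) and 6.47% in the dKO library (5.73% to 7.28%).

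**Figure D3:**
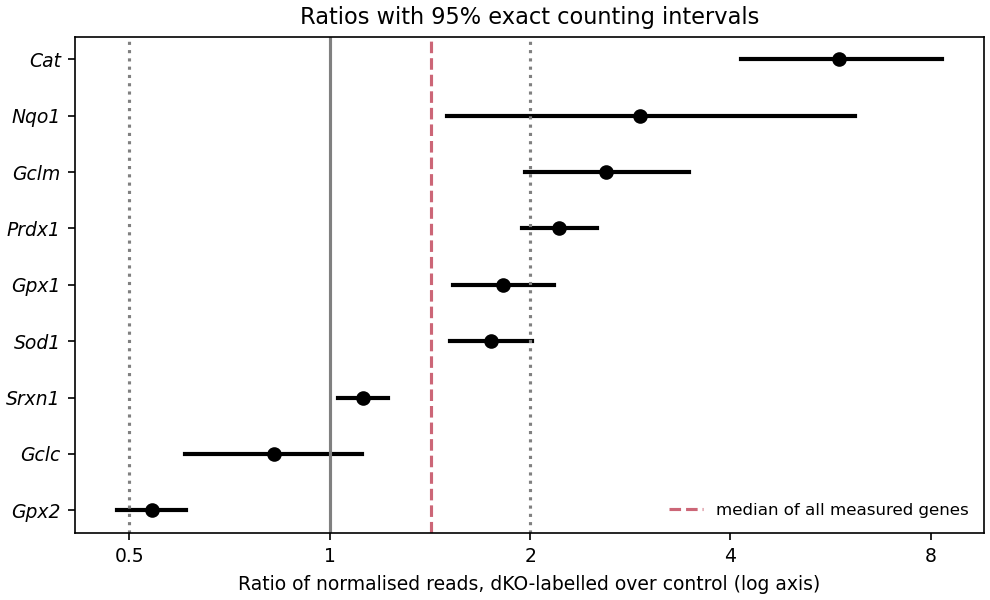
Ratio of normalised reads, dKO-labelled over control, for the 9 measured enzymes (log axis), with 95% exact counting intervals, a solid line at 1, dotted lines at 0.5 and 2, and a dashed line at the median of all measured genes. Only the interval of Cat lies wholly above 2, the interval of Gclc includes 1, and that of Gpx2 lies wholly below 1.

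Counting intervals lay wholly above 1 for 7 of the 9 enzymes, wholly below 1 for Gpx2, and included 1 for Gclc. Of all measured genes, 52.5% had an interval wholly above 1 and 12.2% wholly below 1. Since such intervals leave out differences between animals, they say only how well each library was counted. The counts of intervals also hold only for the deposited size factors, because another scaling shifts every interval. With TMM scaling the log2 ratio of Srxn1 was -0.36 and that of Gclc -0.80. Each lay below the interval it had with the deposited size factors.

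The order of the ratios can be read free of scaling by setting each gene against each other gene. Of the 36 pairs among the 9 enzymes, 27 had a ratio of ratios whose counting interval excluded 1. These pairs were examined after the values were seen. Cat exceeded 7 of the other 8, the exception being Nqo1 (1.98, 0.869 to 4.27), and Gpx2 lay under all 8. Cat against Gpx2 gave the widest gap, 10.7-fold (7.50 to 15.7). Gclm exceeded Gclc 3.15-fold (2.07 to 4.81), and Prdx1 exceeded Srxn1 1.97-fold (1.69 to 2.31). Gpx1 and Sod1 were not distinguishable from each other (1.04, 0.832 to 1.31), nor were Gclm and Prdx1 (1.17, 0.862 to 1.62).

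**Figure D4:**
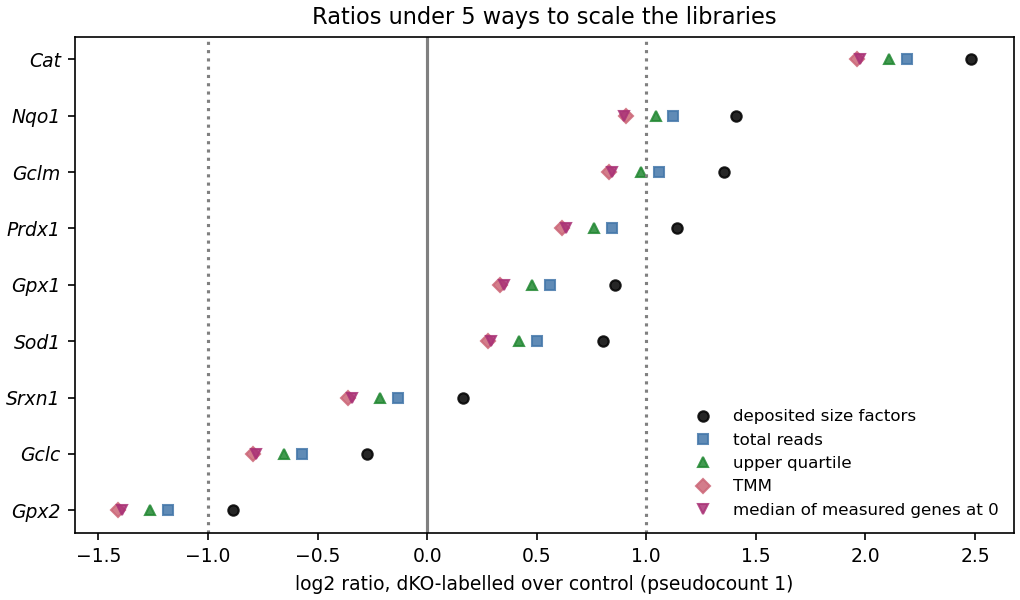
log2 ratio of dKO-labelled over control for the 9 measured enzymes under 5 ways to scale the libraries, with dotted lines at 2-fold. Each scaling moves the genes together: Cat stays above 2-fold and Gpx2 below 0 in all 5, while Srxn1 is above 0 with the deposited size factors and below 0 with the other 4.

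Levels per kilobase of transcript, in normalised reads with the added read taken off, placed the enzymes in a different order in each library. In the control, Gpx2 was highest at 717 (665 to 771), followed by Sod1 at 501 (446 to 561). Srxn1 at 355 (332 to 378), Gpx1 at 193 (167 to 222) and Prdx1 at 151 (135 to 168) came next. Gclc (28.6), Cat (16.1), Gclm (13.0) and Nqo1 (8.14) were far lower. The intervals of Gpx1 and Prdx1 touched, as did those of Cat and Gclm and of Gclm and Nqo1. In the dKO library Sod1 was highest at 875 (806 to 949). Srxn1 (398), Gpx2 (387), Gpx1 (351) and Prdx1 (333) followed so closely that the intervals of neighbours overlapped. Cat came next at 93.7 (82.7 to 106), and Gclm (33.8), Nqo1 (23.8) and Gclc (23.6) were lowest, again with overlapping intervals between neighbours. Transcript lengths were between 641 and 5589 bases. Over the 5956 measured genes with a length, the median log2 ratio was 0.65 for transcripts of up to 2087 bases, 0.54 for those of 2088 to 3740 bases and 0.32 for longer ones, in groups of nearly equal size. The part of transcript length in the ratios of the enzymes was not tested.

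The promoters were searched for TGACNNNGC, the core of the antioxidant response element, on either strand. RefSeq promoter windows of 300 bases, from 250 before to 50 after a transcript start (GRCm38.p6), matched 9 of the 10 genes, with 11 windows in all. The motif was present in 5 of the 11 windows, those of Gclm, Prdx1, Sod1, Srxn1 and 1 of the 3 of Txnrd1, against 12.4% of all 32851 windows. The 200 bases before the start are shown for Gclm, Prdx1 and Sod1, the measured genes whose match lies upstream of the start. They are also shown for Cat, which had the largest ratio and no match. They run 5′ to 3′ on the gene's strand, with the match in capitals. It lies on the opposite strand in all 3, so the capitals read as its reverse complement.
Gclm (chr3:122245357-122245556, plus strand): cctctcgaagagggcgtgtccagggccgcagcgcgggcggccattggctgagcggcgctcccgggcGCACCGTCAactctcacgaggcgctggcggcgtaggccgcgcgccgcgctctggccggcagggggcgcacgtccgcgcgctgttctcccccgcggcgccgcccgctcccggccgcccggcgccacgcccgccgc
Prdx1 (chr4:116685399-116685598, plus strand): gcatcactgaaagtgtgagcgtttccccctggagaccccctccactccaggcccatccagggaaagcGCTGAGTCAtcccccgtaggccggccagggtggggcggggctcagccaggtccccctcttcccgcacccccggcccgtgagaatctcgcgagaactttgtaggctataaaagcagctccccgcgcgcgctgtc
Sod1 (chr16:90220562-90220761, plus strand): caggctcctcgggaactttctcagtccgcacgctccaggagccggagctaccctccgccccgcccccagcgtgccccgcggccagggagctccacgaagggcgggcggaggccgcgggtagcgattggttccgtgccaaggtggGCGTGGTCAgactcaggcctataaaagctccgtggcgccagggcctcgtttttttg
Cat (chr2:103485154-103485353, minus strand): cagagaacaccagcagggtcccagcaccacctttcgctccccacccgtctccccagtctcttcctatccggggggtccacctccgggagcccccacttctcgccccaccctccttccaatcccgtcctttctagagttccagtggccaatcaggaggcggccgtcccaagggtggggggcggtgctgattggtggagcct

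Read on its own strand, the match was TGACGGTGC in Gclm, TGACTCAGC in Prdx1 and TGACCACGC in Sod1. Its first printed base lay at -134, -133 and -56 from the start. Measured genes with a match had ratios from 1.12 (Srxn1) to 2.60 (Gclm), and Txnrd1, not measured, had 0.901. The measured genes with a window and no match, Cat, Nqo1, Gpx1 and Gpx2, had ratios from 0.540 to 5.81, so the ranges overlapped. A match is a description of letters and does not show a binding site, and elements outside the window are not covered.

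The regulators of the pathway were followed through NRF2, KEAP1 and their partners. Nfe2l2, the gene of NRF2, had a normalised count of 83.2 in the control library and 167 in the dKO library, a ratio of 2.02 (1.54 to 2.68), which with the pseudocount was just under the 2-fold limit and lay 0.49 above the median log2 ratio of measured genes. Keap1 had 1 and 3 reads (2.70, 0.217 to 142), too few to compare. Of 9 measured regulators, 1 was at least 2-fold higher, the KEAP1 partner Cul3 (2.23, 1.61 to 3.13), and 0 were at least 2-fold lower, against 26.2% and 4.18% of all measured genes. Mafg, a small MAF partner of NRF2, had 58 and 33 reads and was 1.95-fold lower (1.25 to 3.09). The median log2 ratio of the list was 0.59, near the 0.51 of all measured genes.

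Other targets of NRF2 were mixed. Of 14 measured, 7 passed the 2-fold limit upward and 2 downward, against 26.2% and 4.18% of all measured genes. Their median log2 ratio was 1.13, against 0.51. Higher were Ephx1, the microsomal epoxide hydrolase (6 and 51 reads, 7.66-fold, 3.29 to 21.8), Blvrb, a biliverdin reductase (8 and 46 reads, 5.18-fold, 2.42 to 12.7), and Cbr1, a carbonyl reductase (74 and 348 reads, 4.24-fold, 3.29 to 5.52). Lower were the exporter gene Abcc5, with 74 and 16 reads, and Hmox1, the inducible heme oxygenase, with 39 and 16 reads. Ftl1, the ferritin light chain, had 1286 and 1296 normalised reads, and so lay below the median shift of measured genes. Hmox1 and Ftl1 were named after their values were seen.

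In the glutathione list, 4 of 10 measured genes were higher by 2-fold or more and 0 lower, beside 26.2% and 4.18% of all measured genes. The list's median log2 ratio of 0.54 was close to their 0.51. The 4 were the glutaredoxin genes Glrx5 (3.94-fold, 2.90 to 5.45), Glrx3 (3.08-fold) and Glrx (2.63-fold) and the transpeptidase family gene Ggt6 (2.99-fold). In the thioredoxin and peroxiredoxin list, 2 of 7 were higher and 0 lower, a share near that background of 26.2%, with a median of 0.69. These were the mitochondrial peroxiredoxin gene Prdx3, with 31 and 118 reads (3.43-fold, 2.29 to 5.27), and Prdx2 (2.07-fold, 1.74 to 2.47). Txn2 and Prdx6 had ratios of 1.62 and 1.69. Txn1 had 460 and 563 reads (1.10, 0.974 to 1.25) and Prdx5 691 and 669 (0.873, 0.784 to 0.972). Txn1 and Prdx5 were named after their values were seen.

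Among the other peroxidases, dismutases and related genes, 3 of 6 measured were at least 2-fold higher and 0 lower, with a median log2 ratio of 0.72. Over all measured genes these were 26.2%, 4.18% and 0.51. Ccs, the chaperone that loads copper into the Sod1 protein, had 12 and 74 reads (5.56-fold, 3.00 to 11.2). Sod2, the mitochondrial superoxide dismutase, had 53 and 139 reads (2.36-fold, 1.71 to 3.31), and Park7 53 and 130 (2.21-fold). Msrb1, a methionine sulfoxide reductase, had a ratio of 1.26. The measured peroxidase genes of the list were not among those higher. Gpx3 had 302 and 297 reads (0.886, 0.753 to 1.04) and Gpx4 17 and 22 (1.17, 0.591 to 2.34). Gpx3 and Gpx4 were named after their values were seen. Among NADPH supply genes, 3 of 6 measured ones were higher by that much and 0 lower, with a median of 1.08, to be read against the same background. Idh2, a mitochondrial isocitrate dehydrogenase that makes NADPH, had 10 and 57 reads (5.14-fold, 2.60 to 11.3). G6pdx (3.41-fold) and Pgls (3.29-fold) carry out the first steps of the pentose phosphate pathway, and Taldo1, of its later steps, had a ratio of 1.40. Other genes of that pathway had ratios near 1. Pgd had 394 and 449 reads (1.03, 0.895 to 1.18) and Tkt 772 and 832 (0.971, 0.880 to 1.07). Pgd and Tkt were named after their values were seen.

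Selenium is needed for the Txnrd1, Gpx1 and Gpx2 proteins. For selenoprotein synthesis and other selenoproteins, 5 of 14 measured genes were higher by 2-fold or more and 0 lower, with a median log2 ratio of 0.66. The background over all measured genes was 26.2% higher and 4.18% lower, with a median of 0.51. Sephs2, which makes selenophosphate, had 84 and 274 reads (2.94-fold, 2.29 to 3.80), and its relative Sephs1 12 and 62 (4.66-fold, 2.49 to 9.50). Dio1 (3.46-fold) and Trnau1ap (2.58-fold) were also higher. Secisbp2l had 349 and 195 reads, a ratio of 0.504 (0.420 to 0.602), just within the 2-fold limit. Selk had 256 and 196 reads, a ratio of 0.690 (0.570 to 0.834). Secisbp2l and Selk were named after their values were seen.

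Sources of reactive oxygen went in opposite directions. Of 10 measured, 3 were at least 2-fold higher and 2 lower, with a median log2 ratio of -0.27. The share higher was near the 26.2% of all measured genes, of which 4.18% were lower and whose median was 0.51. Duox2, an oxidase that releases hydrogen peroxide at the apical surface, had 399 and 68 reads (6.51-fold lower, 5.02 to 8.55). Xdh, the xanthine oxidoreductase, had 1060 and 543 reads. It was named after its value was seen. Cyba, the membrane subunit shared by several NADPH oxidases, had 56 and 286 reads (4.60-fold higher, 3.45 to 6.25). The monoamine oxidases Maoa and Maob, which produce hydrogen peroxide at the mitochondrial outer membrane, had 44 and 532 and 1 and 224 reads.

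Relative to the median of all measured genes, as many or fewer members of each list lay 2-fold higher. At least 2-fold above it and below it were 2 and 0 genes of the glutathione list, 1 and 0 of the thioredoxin list, 1 and 0 of the other peroxidases and dismutases, and 0 and 1 (Mafg) of the regulators. The counts were 5 and 2 for other NRF2 targets, 3 and 0 for NADPH supply, and 3 and 5 for sources of reactive oxygen. For selenoproteins they were 3 and 2 (Secisbp2l and Selk). Of all measured genes, 11.8% lay that far above the median and 10.4% that far below it.

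**Figure D5:**
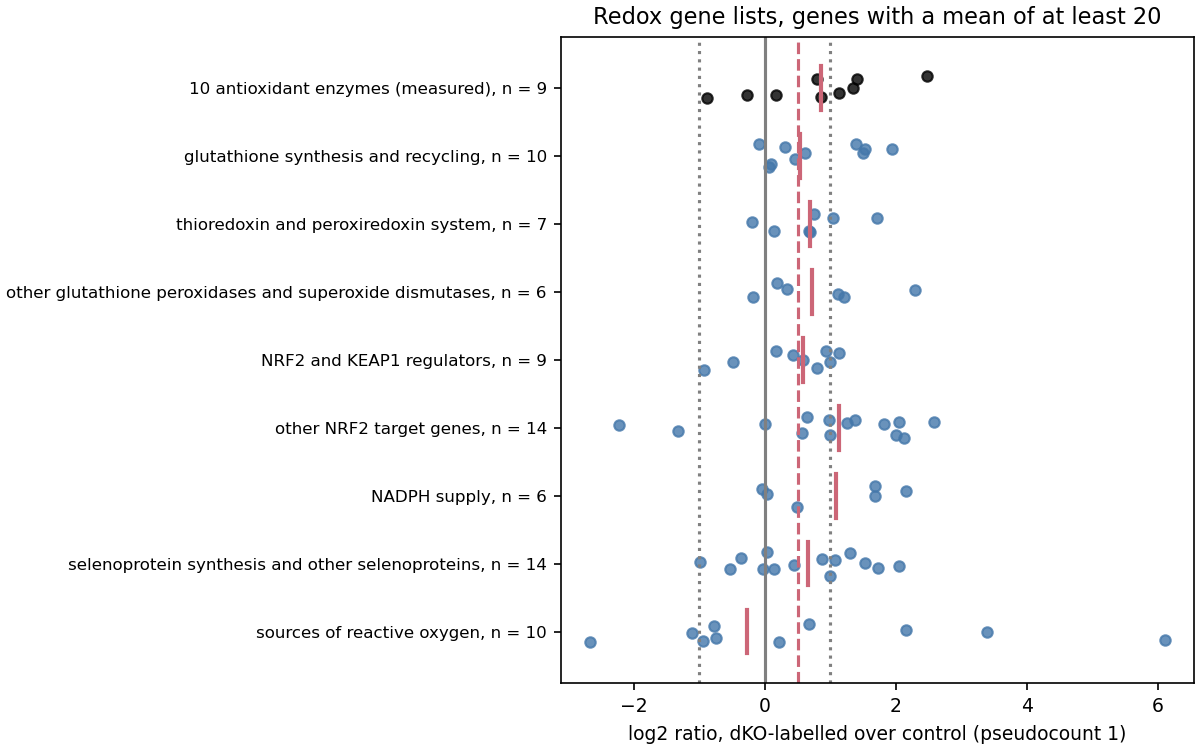
log2 ratio of dKO-labelled over control for the measured members of the antioxidant enzyme set (black) and of 8 redox gene lists (blue), 1 point per gene, with red bars at list medians, a dashed line at the median of all measured genes and dotted lines at 2-fold. The list medians run from -0.27 for sources of reactive oxygen to 1.13 for other NRF2 target genes.

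In the authors' deposited table, the unadjusted DESeq p-values of the 10 rows ranged from 0.0741 for Cat to 1 for Txnrd1, and 0 of 10 were under 0.05. Of all 22040 rows of that table, 0.558% were under 0.05. With 1 library per group that p-value has no replicate spread behind it, and it shows neither a difference nor its absence.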

How the data were processed

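RNA sequencing of 2 villus libraries was analysed from 1 table of 22040 RefSeq transcript rows. The submitters' processing notes name TopHat, DESeq and mm9, without versions. No source used here gives the counting tool or the strand setting. The library kit was TruSeq RNA v2, per the labels' protocols. The deposited signal is, per the file headers, a DESeq base mean, a read count divided by a size factor. In each column all values were whole multiples of the smallest (1.05 and 0.949), for 100% of rows to within 0.001, and none was 0. Reads were recovered as multiples minus 1, which assumes that 1 read had been added, an inference from the values. The deposited fold (ratio), log2 and unadjusted p-value columns are the authors' own.

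Genes were compared by log2((dKO + 1)/(control + 1)) of normalised counts and called by size at 2-fold at a mean of at least 20. Folds in the text divide the ratio of recovered reads by 1.11, the ratio of size factors, with Clopper-Pearson intervals. Ratios of ratios have exact conditional intervals, and levels per kilobase exact Poisson intervals. Symbols were used as the table writes them. Transcript lengths came from GENCODE M21, paired by RefSeq identifier, and promoters from RefSeq (GRCm38.p6). Both differ from mm9, so no coordinate comes from the table. All 10 enzymes are named, and from each list up to 4 measured genes with the largest absolute log2 ratio, with Nfe2l2 and Keap1. Genes named otherwise are marked in the text. Genes and lists were chosen with earlier results of these data known. Alternatives were total-read, upper-quartile, TMM and median scaling, pseudocount 5, other filters, an interval rule, summed rows and removal of the added read. The functions were tested on simulated data. Tools were Python 3.11.15 with scipy 1.17.1, numpy 2.4.6, pandas 2.3.3 and matplotlib 3.10.9, and edgeR 4.0.16 (R 4.3.3) for TMM.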

Additional observations from a re-analysis of the deposited data

How the results depend on the processing

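Leaving out a replicate could not be run with 1 library per group. No paired analysis was possible because each genotype has 1 library. Scaling by total reads, by the upper quartile, by TMM or to a median of 0 (median scaling) shifts log2 ratios by -0.30, -0.38, -0.53 and -0.51. Antioxidant enzymes at least 2-fold higher numbered 4, and 2 under upper-quartile scaling, 1 under TMM, 1 under median scaling and 1 by the interval rule, which was Cat in the last 3. At least 2-fold lower was 0, and 1 (Gpx2) with each of the 4 scalings. The median of 0.86 became 0.56, 0.48, 0.33 and 0.35 in that order. Srxn1 changed sign with all 4 and no other of the 9 changed sign under any of the settings tried. Cat stayed between 1.96 and 2.51 and Gpx2 between -1.41 and -0.88.

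All measured genes higher and lower numbered 1574 and 251, against 1009 and 424 with total reads, 880 and 498 by the upper quartile, 712 and 641 by TMM, 711 and 626 by median scaling, 3704 and 892 unfiltered, 358 and 104 above a mean of 100, and 627 and 104 by the interval rule. List medians outside their main interval (the medians of the members' interval bounds) were as follows. The glutathione list was at 0.024 with TMM and 0.034 by median scaling. The thioredoxin list was at 0.39, 0.31, 0.17 and 0.18, and the regulators at 0.29, 0.21, 0.066 and 0.082, in the order of the 4 scalings. With the upper quartile, TMM and median scaling, other peroxidases and dismutases were at 0.35, 0.20 and 0.22 and NADPH supply at 0.70, 0.56 and 0.57. Sources of reactive oxygen were at -0.78 with TMM and -0.77 by median scaling. These shifts follow from the scaling factors themselves. At this depth Txnrd1 (2 and 2 reads) could not be compared. The intervals of Nqo1 (1.50 to 6.15), Gclm (1.97 to 3.47) and Prdx1 (1.94 to 2.52) span 2-fold. Those of Gpx1 (1.53 to 2.17) and Sod1 (1.52 to 2.01) upward and Gpx2 (1.64 to 2.09) downward also reach it.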
